A study of Rattus norvegicus with 16 samples.

Results

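The prostaglandin synthesis and receptor genes of the rat kidney are described here through 10 genes, found in the deposited expression table by their gene names: Ptgs1, Ptgs2, Ptges, Ptges2, Ptgds, Ptger3, Ptger4, Hpgd, Pla2g2a and Pla2g4a. All 10 were present, of 35849 genes in the table, and all 10 had enough counts to be tested in each of the 6 comparisons between groups. Renal mRNA was sequenced from 16 male Sprague Dawley rats, 4 in each of 4 groups, which were 6 to 8 weeks old at the start. The normal group received citrate buffer and a normal diet. The DN (diabetic nephropathy) group received streptozotocin (STZ), a toxin of the insulin-producing beta cells, at 45 mg/kg, and a diet rich in glucose and fat. Rats entered the diabetic groups only with a blood glucose above 16.7 mmol/L. Both treated groups received the same STZ and diet, plus sinomenine (SIN), a plant alkaloid, every day by gavage for 8 weeks, and are named SIN (20 mg/kg) or SIN (40 mg/kg) by the daily dose. STZ and diet were thus shared by the 12 diabetic rats and absent from the normal rats, so their effects cannot be told apart. A comparison of SIN with DN asks what the drug changed in diabetic kidneys, and DN with normal what the model changed.

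Prostaglandins are short-lived lipid signals made from arachidonic acid. Phospholipases free the acid from membranes, the cyclooxygenases turn it into prostaglandin H2, terminal synthases make prostaglandin E2 or D2 from that, and G-protein-coupled receptors read the product until Hpgd inactivates it. In the kidney they are known for their part in medullary blood flow, renin release and the handling of salt and water, and different nephron segments carry different members of the pathway.

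Library totals ran from 19616312 to 25217030 estimated counts, of which 3933 to 7410 per rat belonged to the 10 genes. The kidney label was checked against marker lists, and all 7 proximal tubule markers were detected, with a summed level of 6763 to 13040 CPM (a gene's reads relative to the TMM-normalised library total) over the 16 rats. The part of the kidney that was sampled is not given in the sources used here. Collecting duct markers summed to 553 to 1208 CPM in normal rats and 975 to 2185 CPM in DN rats, and 0 of the 8 had an adjusted p under 0.05 between those groups. At an unadjusted p under 0.05, 4 of the 8 were higher in DN and 0 lower, beside 17.5% of all genes higher. The sum was 1176 to 1964 CPM in SIN (20 mg/kg) and 1281 to 2204 CPM in SIN (40 mg/kg). The largest terms of that sum were Aqp2 and Aqp3, with medians of 679 and 273.5 CPM over the 16 rats. Slc14a2, a urea transporter of the inner medulla, spanned 1.21 to 54.4 CPM within the normal group alone. Because these are bulk samples, fewer cells of a type and less RNA per cell cannot be told apart.

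The stretches upstream of the genes that carry the results are given first, as the 250 bases before the annotated start, 5′ to 3′ on the gene's strand, from RefSeq on the rat build GRCr8. Of the 10 genes, 9 were matched in that set by symbol. Capitals mark every match, on either strand, to the TATA box TATAAA, the GC box GGGCGG, the CCAAT box CCAAT or the E-box CACGTG, which were found in 12.9%, 30.5%, 34% and 5.59% of 33469 promoters of the same length. Ptgds and Ptger4 are shown because both were lower in DN than in normal rats, and Ptgs2 and Pla2g4a because their levels moved together from rat to rat within groups. The Ptgds stretch lies at chr3:28682979-28683228 (minus strand), that of Ptger4 at chr2:56073523-56073772 (minus strand), that of Ptgs2 at chr13:64713813-64714062 (plus strand) and that of Pla2g4a at chr13:64572353-64572602 (minus strand).
Ptgds: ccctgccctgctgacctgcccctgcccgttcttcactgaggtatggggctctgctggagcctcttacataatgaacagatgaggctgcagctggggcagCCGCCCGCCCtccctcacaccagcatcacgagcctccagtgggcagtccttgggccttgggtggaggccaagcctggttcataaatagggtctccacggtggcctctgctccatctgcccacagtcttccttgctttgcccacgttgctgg
Ptger4: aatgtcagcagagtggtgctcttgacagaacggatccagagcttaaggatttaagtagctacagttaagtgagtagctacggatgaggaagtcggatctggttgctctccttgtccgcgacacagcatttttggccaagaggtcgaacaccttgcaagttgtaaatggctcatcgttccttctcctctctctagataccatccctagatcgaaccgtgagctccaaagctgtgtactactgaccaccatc
Ptgs2: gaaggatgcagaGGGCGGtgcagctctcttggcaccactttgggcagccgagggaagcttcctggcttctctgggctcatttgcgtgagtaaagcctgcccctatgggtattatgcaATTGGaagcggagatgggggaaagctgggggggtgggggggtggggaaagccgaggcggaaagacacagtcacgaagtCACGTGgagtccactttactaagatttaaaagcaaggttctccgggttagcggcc
Pla2g4a: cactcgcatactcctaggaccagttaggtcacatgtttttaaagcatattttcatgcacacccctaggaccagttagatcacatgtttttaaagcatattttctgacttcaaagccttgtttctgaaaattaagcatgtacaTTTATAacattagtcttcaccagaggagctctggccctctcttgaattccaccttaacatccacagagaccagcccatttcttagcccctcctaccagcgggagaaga
The Ptgds stretch held 2 overlapping GC boxes, 151 to 146 and 147 to 142 bases before the start. In the Ptgs2 stretch there were 1 GC box, 1 CCAAT box and 1 E-box, the last at 55 to 50 bases before the start, while Pla2g4a had 1 TATA box match at 108 to 103 bases, read on the opposite strand. None of these letters occurred in the Ptger4 stretch. Ptgs2 and Pla2g4a are neighbours on chromosome 13, pointing away from each other on opposite strands, with annotated starts 142 kb apart.

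In DN kidneys, Ptgds and Ptger4 fell and Ptges2 rose against normal kidneys, and the other 7 genes did not pass the test. These 3 of 10 genes were called at an adjusted p under 0.05, where 19.5% of the 15775 genes tested were called, 8.74% higher and 10.8% lower. At an unadjusted p under 0.05 there were 2 genes higher and 4 lower, beside 36.9% of all genes, 17.5% higher and 19.4% lower. The groups did not overlap for 4 genes, with Ptges2 higher and Ptgds, Ptger4 and Hpgd lower in every DN rat than in any normal rat, beside 24.3% of all genes, 11.2% higher and 13.1% lower. The median log2 fold change of the 10 genes was 0.07, and that of all genes tested was 0.0016. No gene of the 10 was called in either comparison of SIN with DN, where 0% of all genes were called at either dose by edgeR's quasi-likelihood test. That share depended on the tool: DESeq2 called 221 of all genes at 20 mg/kg and 436 at 40 mg/kg, and the edgeR exact test 89 and 158, with none of the 10 genes called by the exact test and none of the 9 to which DESeq2 gave an adjusted p. DESeq2 gave Pla2g2a no adjusted p at either dose (unadjusted p = 0.257 at 20 mg/kg and 0.00479 at 40 mg/kg). With the 4 groups of each gene put in order of their mean level, 30 pairs of neighbouring groups arise, and 1 of them, normal and DN for Ptgds, differed beyond the spread between rats (adjusted p under 0.05).

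**Figure D1:**
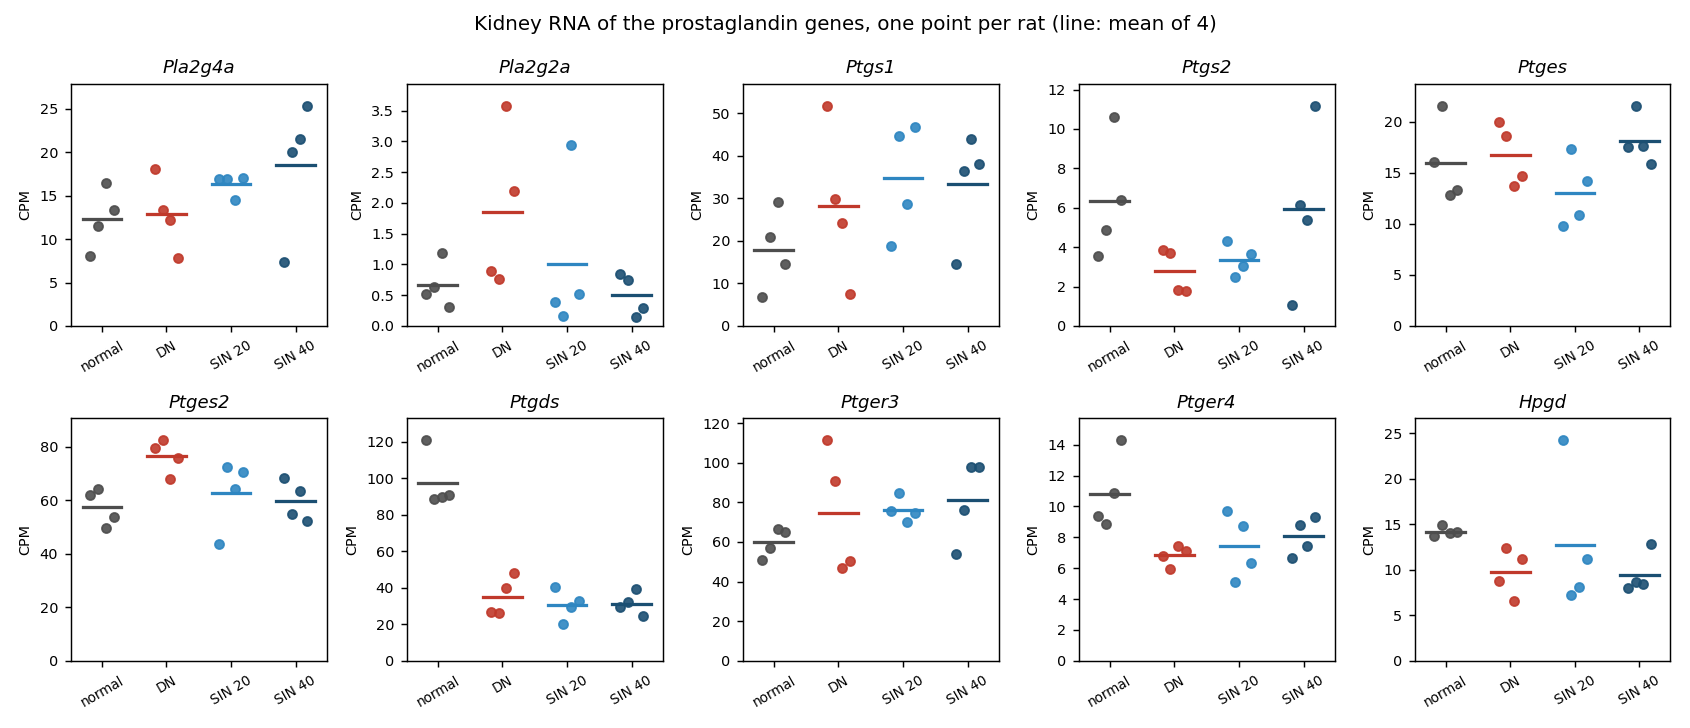
Level of each of the 10 genes in CPM (linear axis from 0) in the 16 rats, 1 point per rat and a line at the mean of 4, by group. Ptgds lies at 88.4 CPM or more in every normal rat and at 48.1 CPM or less in all 12 diabetic rats, while the points of most other genes overlap between groups.

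Levels can be compared between genes only per length of transcript. On that scale the mean level in normal rats was 124 CPM per kb for Ptgds, 54.3 for Ptger3 and 26.6 for Ptges2, between 12.7 and 4.35 CPM per kb for Ptges, Hpgd, Ptger4, Ptgs1 and Pla2g4a in falling order, 1.46 for Ptgs2 and 0.777 for Pla2g2a.

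Among the phospholipases, Pla2g4a, the cytosolic enzyme that is selective for arachidonic acid, was measured at 8.01, 11.5, 16.5 and 13.3 CPM in the normal rats and at 18.1, 13.4, 12.2 and 7.86 CPM in DN. The SIN (20 mg/kg) rats had 16.9, 16.9, 14.5 and 17.1 CPM, and the SIN (40 mg/kg) rats 7.34, 20.0, 21.5 and 25.4 CPM. All 4 groups overlapped, and 7 of the 12 diabetic rats lay above the normal range. Between DN and normal the log2 fold change was 0.07 (95% CI -0.54 to 0.67), and between SIN (40 mg/kg) and DN it was 0.53 (95% CI -0.27 to 1.33, adjusted p = 0.47).

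Pla2g2a, a secreted phospholipase associated with inflammation, was measured at 0.512, 0.629, 1.19 and 0.311 CPM in normal rats and at 0.885, 0.759, 3.58 and 2.19 CPM in DN rats. The SIN (20 mg/kg) rats had 0.387, 0.159, 2.94 and 0.517 CPM, and the SIN (40 mg/kg) rats 0.845, 0.750, 0.14 and 0.29 CPM. High values thus came from 3 rats, DN replicates 3 and 4 and SIN (20 mg/kg) replicate 3. The log2 fold change was 1.49 for DN over normal (SE 0.58, adjusted p = 0.0957) and -1.87 for SIN (40 mg/kg) over DN (SE 0.65, unadjusted p = 0.0162, adjusted p = 0.22). Neither difference held after adjustment in this fit, and DN and SIN (40 mg/kg) rats overlapped. In DN replicate 3 the summed markers of other tissues were also high, at 699 CPM for smooth muscle against 89.5 to 278 CPM in the other normal and DN rats, and at 195 CPM for the urothelium of the renal pelvis. The urothelial sum was 98.6 CPM in DN replicate 4 and 36.6 CPM in SIN (20 mg/kg) replicate 3. It was also 89.1 CPM in normal replicate 1, a rat with 0.512 CPM of Pla2g2a, and ran from 7.23 to 39.55 CPM in the other rats. The adipose sum was highest in SIN (40 mg/kg) replicate 1, at 97.7 CPM with 0.845 CPM of Pla2g2a, and next highest in the 2 rats with the most Pla2g2a, at 71.95 CPM in SIN (20 mg/kg) replicate 3 and 64.0 CPM in DN replicate 3. It was 22.7 CPM in DN replicate 4 and 16.8 to 35.9 CPM in the other 12 rats. Of the urothelial markers 0 of 6 tested were called between DN and normal, and of the smooth muscle markers 1 of 5. The part of these tissues in the Pla2g2a values was not tested.

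Both cyclooxygenases varied strongly from rat to rat within a group. Ptgs1, the constitutive enzyme, had 6.89, 20.9, 29.2 and 14.6 CPM in normal rats, 51.8, 29.8, 24.1 and 7.48 CPM in DN, 18.8, 44.7, 28.6 and 46.7 CPM in SIN (20 mg/kg) and 14.6, 36.4, 44.0 and 38.1 CPM in SIN (40 mg/kg). No diabetic rat was below the normal range and 7 of 12 were above it, yet the groups overlapped. The log2 fold change of DN over normal was 0.66, with a 95% CI from -0.54 to 1.86, and those of the SIN groups over DN were 0.29 (95% CI -0.78 to 1.36) and 0.23 (95% CI -0.87 to 1.34).

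Ptgs2, the inducible cyclooxygenase, which in the kidney is also made without inflammation in the macula densa and in medullary interstitial cells, had 3.54, 4.89, 10.6 and 6.40 CPM in normal rats and 3.85, 3.69, 1.83 and 1.76 CPM in DN. The values were 4.30, 2.47, 3.04 and 3.67 CPM in SIN (20 mg/kg) and 1.06, 6.14, 5.37 and 11.2 CPM in SIN (40 mg/kg). The lowest and the highest value of all 16 rats both fell in the SIN (40 mg/kg) group. DN over normal gave a log2 fold change of -1.19 (SE 0.39, adjusted p = 0.0573), just short of the threshold. SIN (40 mg/kg) over DN gave 1.1, with a 95% CI from -0.17 to 2.37 and an adjusted p of 0.35, and SIN (20 mg/kg) over DN gave 0.27 (95% CI -0.45 to 0.99). The DN call depended on the method: the adjusted p was 0.0151 with DESeq2, 0.0277 with the edgeR exact test and 0.0485 with a minimum of 10 counts in every rat. It was 0.0578 with RLE normalization, 0.0626 with no filter, 0.0956 with all 16 rats in 1 fit and 0.15 with the replicate block. With 1 rat left out, 1 of 8 fits passed. Without normal replicate 3 the log2 fold change was -0.823 (adjusted p = 0.164).

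The terminal synthases differed among themselves. Ptgds, which makes prostaglandin D2 and, as a secreted lipocalin, also carries small lipophilic molecules, had 121, 88.4, 89.8 and 90.8 CPM in normal rats and 26.7, 26.0, 39.7 and 48.1 CPM in DN rats. They were 40.6, 20.4, 29.7 and 32.6 CPM in SIN (20 mg/kg) and 29.4, 32.0, 39.5 and 24.5 CPM in SIN (40 mg/kg). Every one of the 12 diabetic rats was below every normal rat. The mean fell from 97.5 ± 15.6 CPM (SD, n = 4) in normal rats to 35.1 ± 10.7 CPM in DN, a log2 fold change of -1.47 (SE 0.21, 95% CI -1.93 to -0.998, adjusted p = 0.00475). Against normal rats, the log2 fold change was -1.66 in SIN (20 mg/kg) (SE 0.20, adjusted p = 0.00159) and -1.64 in SIN (40 mg/kg) (SE 0.16, adjusted p = 0.000576). Ptgds was the 1 gene of the 10 called in each of those comparisons, beside 3.58% and 3.69% of all genes called lower. Groups did not overlap, with the SIN rats lower, for 7.15% of all genes at 20 mg/kg and 7.1% at 40 mg/kg against normal. The 3 comparisons share the same 4 normal rats.

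No difference in Ptgds between SIN and DN rats was detectable. The log2 fold change over DN was -0.20 at 20 mg/kg (95% CI -0.75 to 0.36) and -0.16 at 40 mg/kg (95% CI -0.65 to 0.32), intervals that end below the size of the fall in DN. Markers of some nephron segments were lower in the same rats: the intercalated cell markers summed to 419 to 531 CPM in normal and 311 to 402 CPM in DN rats, with 3 of 5 called lower. Umod, the uromodulin gene of the thick ascending limb, ran from 2921 to 3596 CPM in normal rats and from 1509 to 2302 CPM in DN, and was the 1 called of the 4 tested markers of that segment other than Ptger3. The part of these segments in the Ptgds values was not tested. Ptgds was called in all 8 fits that left out 1 rat and in all 7 other settings in each of the 3 comparisons with normal.

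Ptges2, the membrane-associated prostaglandin E synthase with a broad tissue distribution, had 62.1, 64.3, 49.7 and 53.9 CPM in normal rats and 79.7, 82.4, 68.0 and 76.0 CPM in DN. In the SIN (20 mg/kg) rats it stood at 43.7, 72.5, 64.3 and 70.6 CPM, and in the SIN (40 mg/kg) rats at 68.4, 54.9, 63.6 and 52.3 CPM. All DN rats were above all normal rats. At 20 mg/kg 3 of 4 rats lay above the normal range and 1 below it, and at 40 mg/kg 3 of 4 lay within it and 1 above. The rise in DN was small, a log2 fold change of 0.42 (SE 0.11, adjusted p = 0.0265). It lost the call without normal replicate 3 (adjusted p = 0.0724), normal replicate 4 (0.0846), DN replicate 1 (0.0577) or DN replicate 2 (0.0699). SIN (40 mg/kg) over DN gave -0.36 (SE 0.11, unadjusted p = 0.00797, adjusted p = 0.2), and SIN (20 mg/kg) over DN -0.29 (95% CI -0.63 to 0.04). With Pla2g2a it made up the 2 of 10 genes with an unadjusted p under 0.05 between SIN (40 mg/kg) and DN, both lower, beside 7.21% of all genes lower, and at 20 mg/kg there were 0 of 10, beside 15.4%.

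Ptges, the inducible microsomal prostaglandin E synthase that is often coupled to Ptgs2, ranged from 12.9 to 21.6 CPM in normal rats, 13.7 to 20.0 CPM in DN, 9.80 to 17.3 CPM in SIN (20 mg/kg) and 15.9 to 21.5 CPM in SIN (40 mg/kg). The log2 fold change of DN over normal was 0.08 (95% CI -0.35 to 0.50), and 10 of the 12 diabetic rats were within the normal range. Between the doses, Ptges was the 1 gene of the 10 with an unadjusted p under 0.05, at a log2 fold change of 0.47 for 40 over 20 mg/kg (unadjusted p = 0.0295, adjusted p = 0.961), beside 2.41% of all genes higher. No gene of the 10 was called between the doses, where 0.00639% of all genes were called.

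**Figure D2:**
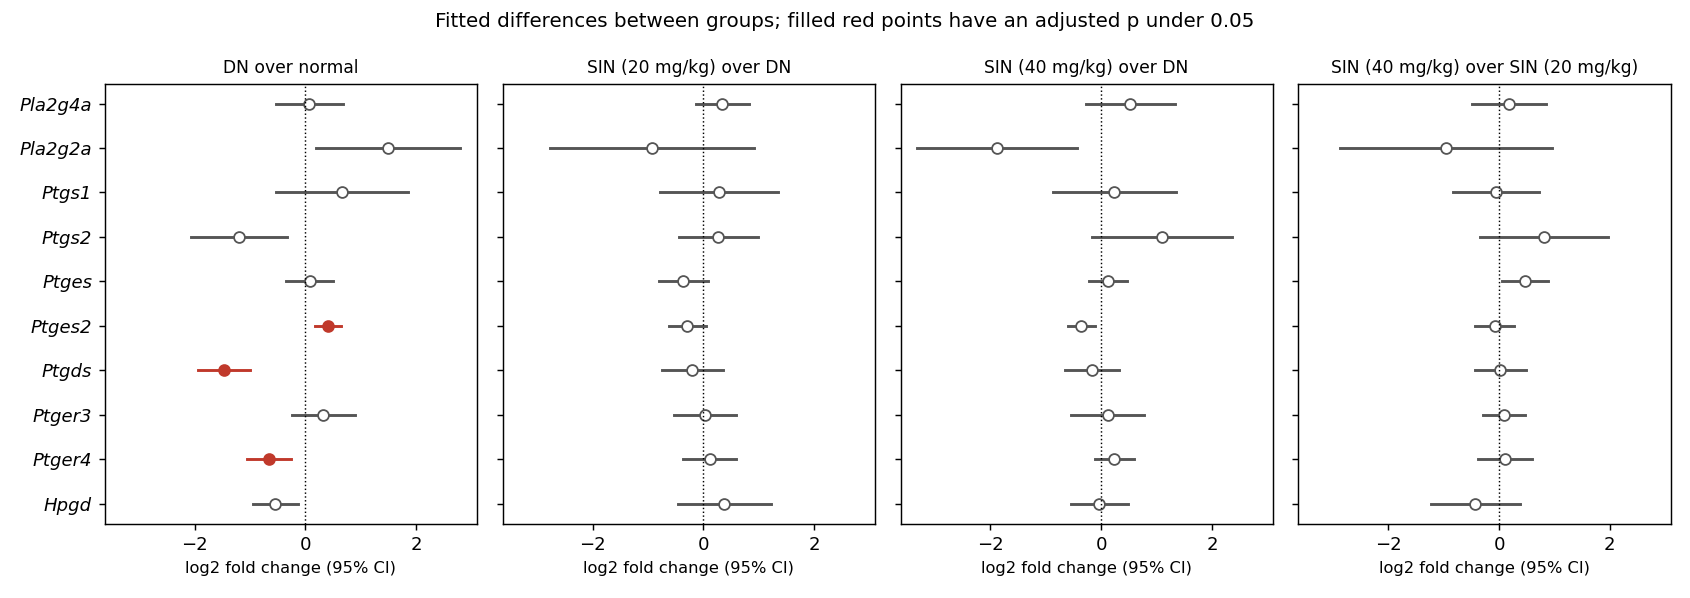
Fitted log2 fold change (point) with its 95% confidence interval (line) for the 10 genes in 4 comparisons, where values right of 0 are higher in the group named first and filled red points have an adjusted p under 0.05. Filled points appear for Ptgds, Ptger4 and Ptges2 in DN over normal and for no gene in the other 3 panels.

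Of the receptors, Ptger4 encodes EP4, which raises cyclic AMP, and Ptger3 encodes EP3, which mostly lowers it. Ptger4 had 9.36, 8.86, 10.8 and 14.3 CPM in normal rats, 6.77, 5.97, 7.43 and 7.14 CPM in DN, 9.72, 5.09, 8.71 and 6.30 CPM in SIN (20 mg/kg) and 6.65, 8.77, 7.47 and 9.34 CPM in SIN (40 mg/kg). Every DN rat was below every normal rat, whereas 1 rat at each SIN dose was within the normal range. The fall in DN was 0.66 on the log2 scale, from 10.8 ± 2.44 to 6.83 ± 0.633 CPM (SD, n = 4 each, adjusted p = 0.0316). It did not pass without normal replicate 3 (adjusted p = 0.0773), normal replicate 4 (0.0901), DN replicate 1 (0.067) or DN replicate 2 (0.0816). SIN over DN gave log2 fold changes of 0.12 (95% CI -0.36 to 0.60) and 0.24 (95% CI -0.12 to 0.60) at the lower and higher dose.

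Ptger3, expressed in the thick ascending limb and collecting duct, had 50.8, 57.0, 66.6 and 64.9 CPM in normal rats and 111, 90.9, 46.9 and 50.2 CPM in DN rats, which thus lay both above and below the normal range. The SIN (20 mg/kg) rats had 75.9, 84.6, 70.2 and 74.5 CPM and were all above the normal rats, as for 6.56% of all genes. The SIN (40 mg/kg) rats had 53.9, 76.1, 97.7 and 97.7 CPM. The log2 fold change was 0.33 for DN over normal (95% CI -0.25 to 0.90), 0.35 for SIN (20 mg/kg) over normal (SE 0.10, adjusted p = 0.0815) and 0.44 for SIN (40 mg/kg) over normal (SE 0.18, adjusted p = 0.174). Without SIN (40 mg/kg) replicate 1 the last of these was 0.59 and passed the test (adjusted p = 0.0315). That was the 1 of 8 fits with 1 rat left out that passed for it, and 0 of 7 other settings did.

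Hpgd, the dehydrogenase that inactivates prostaglandins, was the steadiest of the 10 in normal rats, at 13.7, 14.9, 14.0 and 14.1 CPM. It was measured at 8.81, 12.3, 6.58 and 11.1 CPM in DN, at 24.2, 7.24, 8.05 and 11.2 CPM in SIN (20 mg/kg) and at 7.97, 8.63, 8.40 and 12.9 CPM in SIN (40 mg/kg). All diabetic rats but SIN (20 mg/kg) replicate 1 were below the normal range, and that rat was above it. The log2 fold change against normal was -0.54 in DN (SE 0.18, adjusted p = 0.0644) and -0.59 in SIN (40 mg/kg) (SE 0.16, adjusted p = 0.0588), neither of which passed. In SIN (20 mg/kg) it was -0.16 with all 4 rats and -0.69 without replicate 1 (adjusted p = 0.0364). The latter was the 1 of 8 fits with 1 rat left out that passed in that comparison, and 0 of 7 other settings did.

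The levels of 4 genes moved with the summed markers of nephron segments. In log2 CPM, with each group centred on its mean, Ptgs1 was higher where the summed collecting duct markers were higher (Pearson's r = 0.86, Spearman's rho = 0.815, 16 rats). Ptgs2 (r = -0.863, rho = -0.906), Pla2g4a (r = -0.84, rho = -0.844) and Ptger3 (r = -0.853, rho = -0.824) were lower where the summed proximal tubule markers were higher. Leaving out the 2 rats farthest from the median of the marker sum gave r = 0.762, -0.911, -0.796 and -0.75 in the same order. Within single groups of 4 rats, r ran from -0.981 to -0.909 for Ptgs2, while for Ptger3 it was 0.371 in SIN (20 mg/kg) and -0.98 to -0.966 in the other groups. These are the strongest of 20 relations computed, between the 10 genes and 2 marker lists that were picked after values had been seen, so they are a description with no test, and all points share their library's total. Between genes, with the same centring, the strongest pair was Ptgs2 with Pla2g4a (r = 0.921, rho = 0.897), followed by Ptgs1 with Pla2g4a (r = 0.823), and Ptges2 ran against Ptger4 (r = -0.807). Without centring these r were 0.695, 0.84 and -0.771, so the order of the pairs depended on it. Ptgs2 and Pla2g4a both ran against the proximal tubule sum, and the part of this in their relation was not tested.

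**Figure D3:**
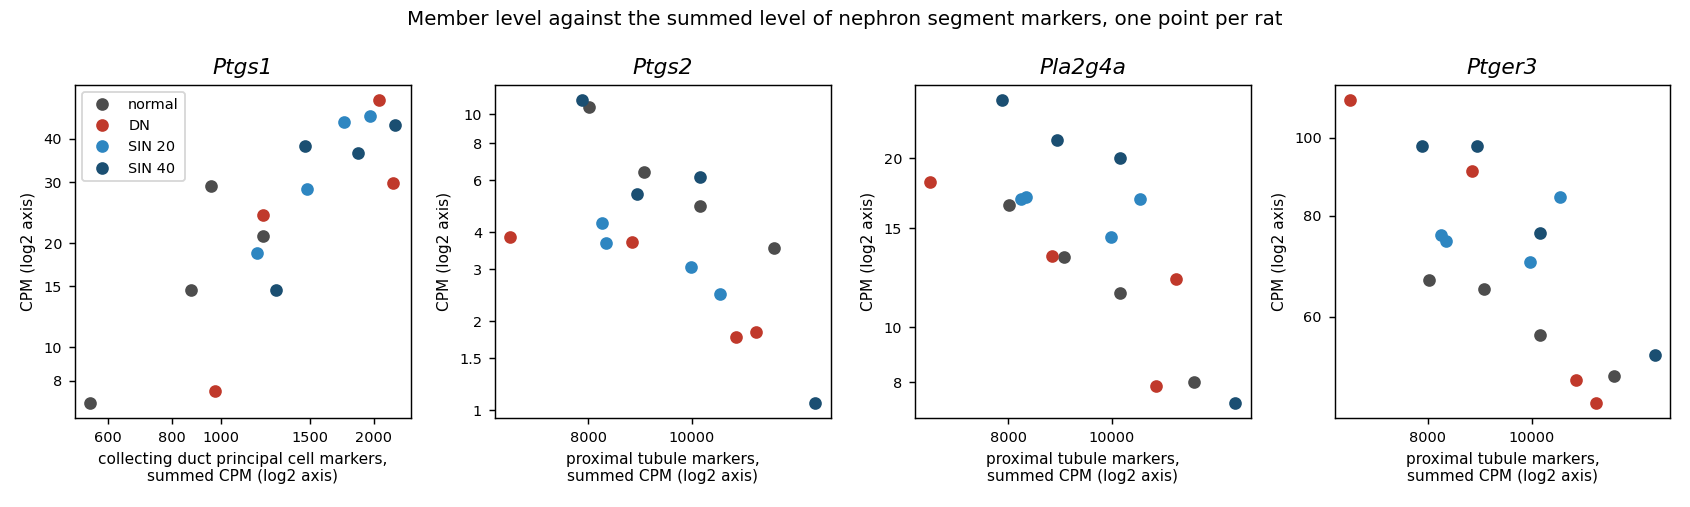
CPM of Ptgs1 against the summed CPM of 8 collecting duct markers, and of Ptgs2, Pla2g4a and Ptger3 against that of 7 proximal tubule markers, 1 point per rat coloured by group, on log2 axes. Ptgs1 is higher where the collecting duct sum is higher, and the other 3 genes are lower where the proximal tubule sum is higher.

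The genes most like those with a call, and like Ptgs2, were ranked by Pearson's correlation of log2 CPM over the 16 rats among 14704 genes. Groups were not centred here, so differences between normal and diabetic rats enter r. Closest to Ptgds were Mpv17l (r = 0.938, rho = 0.762), Ccn6 (r = 0.923, rho = 0.802) and Ahcyl2 (r = 0.922, rho = 0.647). For the genes named next, rho was 0.909 to 0.953. Closest to Ptger4 were Zfp106 (r = 0.918), Clk1 (r = 0.908) and LOC103690017 (r = 0.899). Fbxw5 (r = 0.953), Psmf1 (r = 0.95) and Plbd2 (r = 0.945) were nearest to Ptges2. For Ptgs2 they were Parp8 and Mex3c (both r = 0.908) and Ednrb, the endothelin B receptor (r = 0.897).

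Other genes of the pathway were taken from a list of 38 symbols, of which 34 were in the table. Ptgr3 and Fam213b are other names of Zadh2 and Prxl2b, which were measured, and Ptgis and Ptgdr were not analysed here. Between DN and normal, 3 of 31 tested rose and 1 fell in edgeR's quasi-likelihood test, a share of 12.9% beside 19.5% of all genes, 8.74% higher and 10.8% lower. Slco2a1 and Zadh2, of transport and breakdown, Faah and Ptges3 were the 4 genes. Slco2a1, the prostaglandin uptake transporter, had 61.2, 75.9, 56.9 and 58.9 CPM in normal rats and 94.1, 118, 109 and 75.9 CPM in DN, a log2 fold change of 0.65 (SE 0.14, adjusted p = 0.018). All 12 diabetic rats were above the normal range for Slco2a1, and so they were for Zadh2, a prostaglandin reductase, which rose by 0.38 in DN (adjusted p = 0.0336). Over all genes, every rat was above every normal rat for 11.2% in DN and for 6.56% in SIN (20 mg/kg). The share for the 12 diabetic rats together was not computed. Slco2a1 was also called in SIN (20 mg/kg) over normal (log2 fold change 0.80, adjusted p = 0.0179). It was not called in SIN (40 mg/kg) over normal (0.57, adjusted p = 0.0514), but the adjusted p was 0.00772 in DESeq2 and 0.0101 in the edgeR exact test. A difference between the doses was not shown (-0.24, adjusted p = 0.97). Ptges3, a cytosolic prostaglandin E synthase that also serves as an Hsp90 co-chaperone, fell in DN by 0.34 on the log2 scale (adjusted p = 0.0462).

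Faah, the hydrolase that frees arachidonic acid from anandamide, was higher in DN than in the other groups. It had 18.1, 16.5, 14.0 and 15.0 CPM in normal rats and 24.3, 28.7, 25.5 and 24.0 CPM in DN rats. The SIN (20 mg/kg) rats had 17.4, 18.4, 19.7 and 17.0 CPM, and the SIN (40 mg/kg) rats 21.9, 17.9, 22.0 and 19.5 CPM. Every DN rat was above every other rat of the 16. The rise in DN was 0.69 (SE 0.11, adjusted p = 0.00734). SIN over DN gave -0.50 at 20 mg/kg (SE 0.10, unadjusted p = 0.000687, adjusted p = 0.27) and -0.33 at 40 mg/kg (SE 0.11, unadjusted p = 0.0121, adjusted p = 0.209), so neither passed after adjustment in edgeR's quasi-likelihood test. DESeq2 called the difference at 20 mg/kg (adjusted p = 0.00467) and the edgeR exact test did not (adjusted p = 0.059), and at 40 mg/kg the adjusted p was 0.0918 in DESeq2 and 0.243 in the edgeR exact test. Groups did not overlap, with SIN lower, for 3.65% of all genes at 20 mg/kg and 3.99% at 40 mg/kg, and both share the 4 DN rats.

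Against normal, 2 of 29 tested genes of the list were called higher in SIN (20 mg/kg), Slco2a1 and Ptgr1, and 0 lower. That is 6.9%, beside 1009 of all 15877 genes. In SIN (40 mg/kg) 2 of 30 were called higher and 1 lower, or 10%, beside 940 of all 15735 genes. Ptgr1, a prostaglandin reductase, was higher in SIN (20 mg/kg) than in normal rats by 0.49 on the log2 scale (adjusted p = 0.0318). In SIN (40 mg/kg) Abcc4, an exporter of prostaglandins, was higher by 0.49 (adjusted p = 0.00386), at 114, 115, 114 and 119 CPM against 79.1, 87.3, 81.6 and 80.1 CPM in normal rats. Mgll, which frees arachidonic acid by way of an endocannabinoid, fell by 0.57 (adjusted p = 0.0336) and Zadh2 was higher by 0.30 (adjusted p = 0.0357). These compare treated diabetic with untreated normal rats, so drug, STZ and diet cannot be told apart in them. Between the doses no difference was shown for Ptgr1, Abcc4, Mgll or Zadh2 in edgeR's quasi-likelihood test (adjusted p = 0.961, 0.9665, 0.978 and 0.997). All 4 SIN (20 mg/kg) rats were also below the normal range for Mgll, as for 7.15% of all genes. There the adjusted p was 0.0585, and it was 0.00639 in DESeq2 and 0.0225 in the edgeR exact test. Alox5, which makes leukotrienes from arachidonic acid, and Ptgr2, a prostaglandin reductase, missed the threshold in edgeR's quasi-likelihood test and passed it with other tools, and are named here after their values were seen. For Alox5 in SIN (40 mg/kg) over normal (log2 fold change 1.30) the adjusted p was 0.0635, 0.0147 in DESeq2 and 0.0165 in the edgeR exact test. For Ptgr2 in DN over normal (log2 fold change -0.26) it was 0.058, 0.0281 in DESeq2 and 0.0895 in the edgeR exact test. Zadh2 in SIN (20 mg/kg) over normal likewise had an adjusted p of 0.097, 0.0498 in DESeq2 and 0.105 in the edgeR exact test. Of the 30 tested genes of the list, edgeR's quasi-likelihood test and the edgeR exact test called 0 between either SIN dose and DN, and DESeq2 called 1, Faah at 20 mg/kg. DESeq2 gave no adjusted p to Alox12, Alox15, Pla2g10 and Ptger2 at either dose, nor to Alox5 and Tbxa2r at 20 mg/kg. At an unadjusted p under 0.05 the quasi-likelihood test had 2 of 30 genes at each dose. They were Ptges3, higher, and Faah, lower, at 20 mg/kg, beside 15.4% of all genes in either direction. At 40 mg/kg they were Mgll and Faah, both lower, beside 7.21% of all genes lower.

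**Figure D4:**
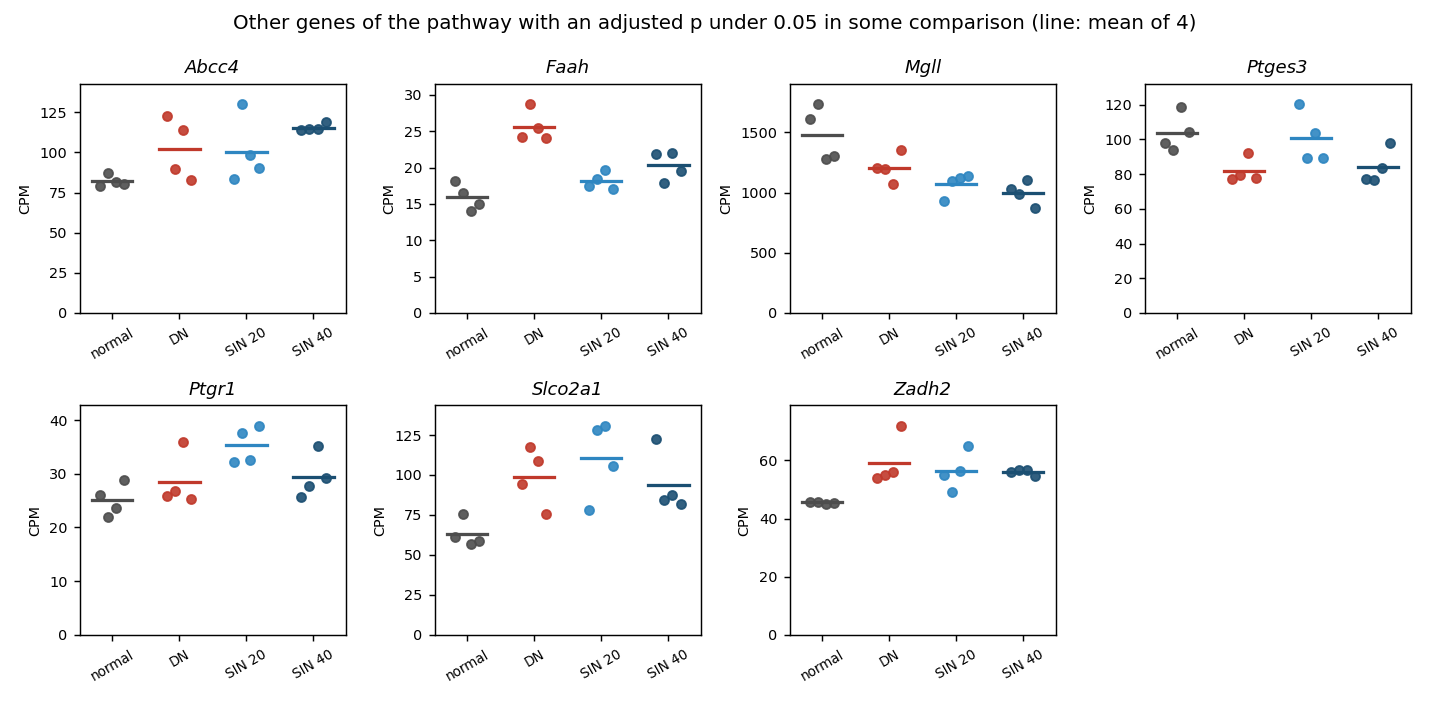
CPM (linear axis from 0) of the 7 other pathway genes with an adjusted p under 0.05 in some comparison by edgeR's quasi-likelihood test, 1 point per rat and a line at the mean of 4, by group. Faah is between 24.0 and 28.7 CPM in DN and at 22.0 CPM or less in all other rats, and Slco2a1 and Zadh2 are above the normal range in all 12 diabetic rats.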

How the data were processed

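Renal tissue mRNA was enriched with oligo(dT) and sequenced in pairs on an Illumina platform. Per the study's methods the reads were trimmed and aligned with TopHat to the rat genome. The submitters' processing notes also name Bowtie, RSEM and edgeR, with no version or role. The authors deposited 1 table of estimated counts (expected counts) per gene and rat, not normalized. Each column was matched to its rat through the library number that the rat's record gives, and the table's group means differed from the means of the joined columns by at most 0.0005. The 4 library columns that no sample record names were not used. Ptges2 has no entry in the promoter set used here.

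Estimated counts were rounded (94.4% of the nonzero values of the 10 genes were whole already). They were tested in R 4.3.3 with edgeR 4.0.16 (quasi-likelihood test, TMM, filterByExpr, 2 groups per fit, two-sided), with Benjamini-Hochberg adjustment over all genes tested in a comparison. Alternatives were DESeq2 1.42.0, the edgeR exact test, RLE normalization, no filter, a minimum of 10 counts, 1 fit of all 16 rats, a replicate block and leaving out each rat. The fits were checked on simulated counts. CPM used TMM factors over 16 rats, and log2 CPM a prior count of 2. Correlations between rats were 0.951 to 0.987 (Spearman, 16404 genes). Rats are separate animals by the labels.

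The 10 genes, the other pathway genes and the marker lists were chosen with earlier results of these data known. All 10 genes are named, other pathway genes where called in some comparison (adjusted p under 0.05), and the 3 most alike genes for those of the 10 with a call and Ptgs2. The Faah ordering, the marker relations and the gene pairs were singled out after their values were seen.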

Additional observations from a re-analysis of the deposited data

Results flagged for a closer look

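In 4 of 40 groups of 4 rats, 10 genes in 4 groups, 1 rat stood far from the other 3 by Dixon's test, and chance flags about 1 in 20 such groups. Ptgds in normal replicate 1 was the highest of its group at 121 CPM, with the others between 88.4 and 90.8 CPM. Hpgd in SIN (40 mg/kg) replicate 4 was the highest at 12.9 CPM, against 7.97 to 8.63 CPM. Pla2g2a in SIN (20 mg/kg) replicate 3 was the highest at 2.94 CPM, against 0.159 to 0.517 CPM. Pla2g4a in SIN (20 mg/kg) replicate 3 was the lowest at 14.5 CPM, against 16.9 to 17.1 CPM. That gap is small in absolute terms and was flagged because the other 3 rats lay close together. The cause was not tested for any of them.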

How the results depend on the processing

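The number of the 10 genes called in DN over normal was 3, and 6 with DESeq2, which added Ptgs2, Hpgd (adjusted p = 0.034) and Pla2g2a (adjusted p = 0.0496). It ran from 1 to 4 when 1 rat was left out, and was 1 without normal replicate 3, normal replicate 4, DN replicate 1 or DN replicate 2. In SIN (20 mg/kg) over normal it was 1, 2 with DESeq2, which added Ptger3, and 1 to 2 with 1 rat left out. For SIN (40 mg/kg) over normal it was 1, and 2 with DESeq2 or the edgeR exact test, which both added Hpgd, 2 with the replicate block, and 1 to 2 with 1 rat left out. Ptgds stayed called in all of these. In SIN over DN and between the doses the count was 0 under every alternative, with Pla2g2a given no adjusted p by DESeq2 in SIN over DN. Over all genes, the number called in DN over normal was 3074, and 4198 of the same 15775 genes in DESeq2. It was 3391 in the edgeR exact test, 1325 under the replicate block and 769 to 3781 with 1 rat left out. In SIN (20 mg/kg) over normal it was 1009, with 1726 in DESeq2 and 551 to 1230 with 1 rat left out, and in SIN (40 mg/kg) over normal 940, with 1761 in DESeq2, 1500 in the edgeR exact test and 462 to 1016 with 1 rat left out. Between SIN and DN it was 0 at either dose, with 13 and 8 when all 16 rats shared 1 fit, 221 and 436 in DESeq2 and 89 and 158 in the edgeR exact test, at 20 and 40 mg/kg. At 20 mg/kg it was also 2 with no filter or with at least 10 counts in every rat, and at 40 mg/kg up to 4 with 1 rat left out. Between the doses it was 1, with 17 in DESeq2, 6 in the exact test and 0 to 5 with 1 rat left out. The cause of these shifts was not tested. Replicate numbers did not pair the rats: the median correlation of deviations between rats of the same number was -0.023, over 0.1 in 2 of 24 pairs, and 3 of 16 rats were most like a rat of their own number. With the replicate block Ptger4 missed the threshold in DN over normal (adjusted p = 0.0549) and Ptgs1 passed in SIN (40 mg/kg) over normal (log2 fold change 0.95, adjusted p = 0.00801). Log2 fold changes of genes with no call in that comparison changed sign in 40 fits that left out 1 rat and in no other setting, and their ranges with 1 rat left out follow. In DN over normal they were -0.019 to 0.25 for Ptges and -0.14 to 0.24 for Pla2g4a. In SIN (20 mg/kg) over DN they were -0.026 to 0.75 for Ptgs1, -0.14 to 0.28 for Ptger3, -0.039 to 0.27 for Ptger4 and -0.14 to 0.58 for Hpgd. In SIN (40 mg/kg) over DN they were -0.082 to 0.68 for Ptgs1, -0.30 to 0.023 for Ptgds, -0.047 to 0.36 for Ptger3 and -0.23 to 0.10 for Hpgd. In SIN (40 mg/kg) over SIN (20 mg/kg) they were -0.27 to 0.18 for Ptgs1, -0.21 to 0.0005 for Ptges2, -0.14 to 0.18 for Ptgds, -0.012 to 0.24 for Ptger3, -0.039 to 0.27 for Ptger4, -0.62 to 0.099 for Hpgd, -1.33 to 0.50 for Pla2g2a and -0.005 to 0.44 for Pla2g4a. In SIN (20 mg/kg) over normal they were -0.69 to 0.035 for Hpgd and -0.90 to 1.01 for Pla2g2a. In SIN (40 mg/kg) over normal they were -0.60 to 0.26 for Ptgs2, -0.021 to 0.12 for Ptges2 and -0.74 to 0.058 for Pla2g2a. Pla2g2a had too few counts for the setting with at least 10 counts in every rat. With 4 rats a group the intervals above limit what could be seen, and Pla2g2a rests on few counts per rat.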
